A study of Mus musculus with 14 samples.

Results

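The genes described here are 8 members of the RAS switch measured in bulk tissue: the RAS genes *Hras* and *Nras*, and 6 genes for RAS GTPase-activating proteins (GAPs), *Nf1*, *Rasa1*, *Rasa2*, *Rasa3*, *Rasal1*, and *Rasal2*. They were chosen by symbol, and all 8 were present among the 24062 genes of the count table. RNA was sequenced from whole, undissociated tissue in 14 libraries: control dorsal root ganglia (DRGs) with nerves (n = 3), slow-growing plexiform neurofibromas (PNs; n = 5), and fast-growing PNs (n = 6). Controls were *Nf1*fl/fl mice and PNs came from DhhCre;*Nf1*fl/fl mice, so the floxed *Nf1* alleles were carried by both and the Cre by the PN mice alone. All were of a mixed strain background of C57BL/6, I-129, and FVBN, and received no drug. The methods give an age of 9 months at collection, although 7 months is also given for these PNs. By MRI at 7 and 9 months, a PN was slow growing when its volume changed by under 5 mm3 over 2 months, and fast growing when it gained over 35 mm3.

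RAS proteins are small GTPases that signal when they hold GTP and stop when the GTP is hydrolysed. Guanine nucleotide exchange factors load RAS with GTP, and GAPs speed its hydrolysis, so loss of a GAP leaves more RAS in the active form. *Nf1* encodes the GAP neurofibromin, whose loss from Schwann cells (SCs) drives neurofibromas. In this model the Dhh promoter limits Cre to the SC lineage, the libraries hold every cell type of the tissue, and a count per gene mixes the floxed exons with all others. The level of *Nf1* in a library was therefore no check of its genotype.

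Levels are CPM, the counts of a gene relative to all counts of its library, after TMM scaling, which corrects for library size and composition. Fold changes are log2 values from edgeR's quasi-likelihood test. Their standard error (SE) was derived as the size of the log2 fold change divided by the square root of the test's F statistic. A gene was called when its p, adjusted by the Benjamini-Hochberg method over all genes tested, was under 0.05. The libraries held 9596773 to 17594164 counts on genes, at which 3 counts correspond to 0.166 to 0.317 CPM. Within a group, pairs of libraries correlated with Pearson's r from 0.848 to 0.980 across genes, and no library was a copy of another. The summed CPM of 15 skeletal muscle markers was 3937 to 16048 in controls, 27.0 to 3618 in slow-growing PNs, and 98.2 to 2426 in fast-growing PNs, and 10 of the 15 were called lower in PNs. The sum of 13 fat markers was 3458 to 5574, 44.4 to 3141, and 44.1 to 272, with 3 of 13 called lower; *Lep* was at 0 in some library of both PN groups, and *Plin1*, *Cidec*, *Cidea*, *Adrb3*, and *Retn* in some fast-growing PN. All 12 SC markers were detected in every library, at a summed CPM of 4792 to 14280 in controls, 8826 to 22733 in slow-growing PNs, and 8299 to 12700 in fast-growing PNs, and 5 of the 12 were called higher and 0 lower in PNs. All 12 sensory neuron markers were detected too, at 1729 to 6276 in controls, 2843 to 14400 in slow-growing PNs, and 35.6 to 8459 in fast-growing PNs, and edgeR called 0 of them in PNs. The sum of 7 endothelial markers was 375 to 474 in controls, 102 to 472 and 138 to 350 in slow-growing and fast-growing PNs, with 2 of 7 called lower. Over the 14 libraries the mean log2(CPM + 1) of the SC markers had a Pearson's r of 0.79 with *Nf1*, 0.86 with *Rasal2*, and -0.85 with *Rasal1* on the same scale. Over the 11 PNs it was -0.32 (-0.50 to 0.11 when 1 PN was left out), 0.64 (0.47 to 0.74), and -0.28 (-0.69 to -0.12). These values describe libraries that also differ in cell composition, and the part of SC transcripts in the results was not tested.

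The start regions of the 3 genes that were called higher in PNs are shown because their transcripts moved in the same direction. RefSeq start regions on GRCm38.p6 (mm10), from 250 bases before to 50 after the transcript start, were matched for 7 of the 8 genes, all but *Rasal1*. That of *Nf1* is chr11:79339642-79339941 on the plus strand, that of *Nras* is chr3:103058035-103058334 on the plus strand, and that of *Rasa2* is chr9:96631454-96631753 on the minus strand. They are printed from 5′ to 3′ on the strand of the gene, and capitals mark the motifs searched on both strands: the GC box (GGGCGG), the CCAAT box (CCAAT), the TATA box (TATAAA), an ETS site (CCGGAAG), and an AP-1 site (TGACTCA).
Nf1: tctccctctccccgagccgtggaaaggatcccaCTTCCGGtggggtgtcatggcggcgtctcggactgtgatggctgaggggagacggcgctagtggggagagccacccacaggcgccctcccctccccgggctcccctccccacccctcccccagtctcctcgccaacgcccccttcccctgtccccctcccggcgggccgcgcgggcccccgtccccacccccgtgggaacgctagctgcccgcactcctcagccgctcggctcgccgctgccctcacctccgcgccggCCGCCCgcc
Nras: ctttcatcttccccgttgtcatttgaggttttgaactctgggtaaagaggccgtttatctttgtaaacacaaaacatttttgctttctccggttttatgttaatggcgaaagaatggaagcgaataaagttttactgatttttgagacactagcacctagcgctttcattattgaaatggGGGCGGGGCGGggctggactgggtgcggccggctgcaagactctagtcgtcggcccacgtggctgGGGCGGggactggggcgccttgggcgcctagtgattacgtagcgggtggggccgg
Rasa2: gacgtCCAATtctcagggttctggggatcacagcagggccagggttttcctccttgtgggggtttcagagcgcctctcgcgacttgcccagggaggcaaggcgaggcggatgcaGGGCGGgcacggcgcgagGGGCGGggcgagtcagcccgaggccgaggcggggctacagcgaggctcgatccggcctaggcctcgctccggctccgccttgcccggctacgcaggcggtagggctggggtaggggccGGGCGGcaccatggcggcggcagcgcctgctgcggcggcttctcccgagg
The GC box letters stood in 6 of the 7 start regions, all but that of *Rasal2*, and in 35.7% of 32851 mouse start regions of this length. The ETS letters stood in those of *Nf1* and *Rasa1* and in 8.86% of all, and the CCAAT letters in those of *Hras*, *Rasa2*, and *Rasa3* and in 37.4% of all. The TATA and AP-1 letters stood in none of the 7, and in 13.6% and 5.2% of all start regions. Neighbouring GC boxes of *Nras* share a base, and no match to one motif overlapped a match to another in the regions printed. The 7 regions held 19 to 34 CpG dinucleotides each, against a median of 7 over all. A match describes the letters and is no evidence of binding.

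The first question was which of these genes differ between PNs and control nerve. Of the 8, *Nf1*, *Nras*, and *Rasa2* rose in PNs and *Rasal1* fell, while *Hras*, *Rasa1*, *Rasa3*, and *Rasal2* did not pass the test. The 3 rises were 1.45-fold to 1.66-fold. Thus 4 of 8 genes were called, where 26.3% of the 16283 genes tested were called; 3 were higher, against 12.9% of all genes, and 1 was lower, against 13.4%. The median log2 fold change was 0.35 over the 8 genes and 0.10 over all genes tested. With marker scores of skeletal muscle and of fat in the model, edgeR called 0 of the 8 genes and 519 of 16283 genes in all. The muscle score was at least 7.61 in controls and at most 7.38 in PNs. For fat, these values were 7.47 and 6.91. Each score thus separates controls from PNs by itself. In every comparison with controls, a call lost with the scores therefore cannot be assigned to muscle or fat.

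*Nf1* lies at chr11:79339693-79581612 on the plus strand of mm10. Its level was 229, 154, and 131 CPM in controls 1 to 3, and 258, 249, 224, 293, and 254 CPM in slow-growing PNs 1 to 5. In fast-growing PNs it was 224 CPM at the lowest, 234 at the median, and 276 at the highest. Controls 2 and 3 lay below every PN, while control 1 lay above 4 of the 11 PNs, so the groups overlapped. *Nf1* was higher in PNs by a log2 fold change of 0.54 (SE 0.16; edgeR, adjusted p = 0.0215), with a mean of 248 ± 22.9 CPM (SD, n = 11) in PNs and 171 ± 51.5 CPM (SD, n = 3) in controls. Control 1 also had the highest SC marker sum of the controls, 14280 CPM against 5261 and 4792 CPM, and the lowest muscle sum, 3937 CPM against 9006 and 16048 CPM; their part in the result was not tested. Without control 1 the log2 fold change was 0.81 (edgeR, adjusted p = 0.00171). The call was lost without control 2 (adjusted p = 0.120), without control 3 (adjusted p = 0.163), with the muscle and fat scores as covariates (log2 fold change 0.44, adjusted p = 0.372), and with the trend on transcript length and GC content removed (log2 fold change 0.23, adjusted p = 0.212). In whole tissue, fewer cells of a type and less RNA per cell cannot be told apart, for this gene and those that follow.

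Of the RAS genes, *Nras* rose in PNs and *Hras* did not pass the test. *Nras* lies at chr3:103058285-103067914 on the plus strand. It was at 158, 149, and 131 CPM in controls, at 170, 202, 201, 281, and 206 CPM in slow-growing PNs, and between 178 and 233 CPM, with a median of 221, in fast-growing PNs. Every PN was above every control. The share of all genes whose groups did not overlap was not counted, in this or any later comparison. The log2 fold change was 0.56 (SE 0.14; edgeR, adjusted p = 0.0120), and the call was lost without control 3 (adjusted p = 0.0872), with the muscle and fat scores (log2 fold change 0.35, adjusted p = 0.418), and with the length and GC trend removed (log2 fold change 0.31, adjusted p = 0.0991).

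*Hras*, at chr7:141189105-141194005 on the minus strand, was at 34.7, 18.2, and 22.8 CPM in controls and at 14.97, 12.9, 21.5, 32.6, and 14.8 CPM in slow-growing PNs. In fast-growing PNs it ranged from 11.7 to 26.2 CPM with a median of 13.6. The groups overlapped, although 7 of the 11 PNs were below every control. The log2 fold change was -0.52 (SE 0.29; edgeR, adjusted p = 0.210).

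*Rasa2*, at chr9:96539300-96631617 on the minus strand, encodes a GAP that is recruited to membranes by phospholipids. It was at 35.9, 38.9, and 37.4 CPM in controls, at 55.5, 53.2, 46.9, 53.6, and 56.0 CPM in slow-growing PNs, and between 60.2 and 88.3 CPM, with a median of 66.9, in fast-growing PNs. From controls over slow-growing to fast-growing PNs, the 3 ranges did not overlap. In PNs the log2 fold change was 0.73 (SE 0.17; edgeR, adjusted p = 0.00534), and it was called without each of the 14 libraries in turn, with adjusted p between 0.00422 and 0.0331. It was not called with the muscle and fat scores (log2 fold change 0.25, adjusted p = 0.570) or with the length and GC trend removed (log2 fold change 0.39, adjusted p = 0.0870).

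*Rasal1*, a calcium-responsive GAP at chr5:120648812-120679597 on the plus strand, was the one gene of the 8 that fell, and the one at the limit of detection. Controls 2 and 3 held 63 and 55 counts (5.82 CPM in each) and control 1 held 0, below a floor of 0.259 CPM for 3 counts. The slow-growing PNs held 6, 1, 4, 1, and 1 counts (0.0751 to 0.456 CPM), and the fast-growing PNs 1 to 14 counts, or 0.0740 to 1.06 CPM with a median of 0.674. All PNs lay below controls 2 and 3 and above control 1, so the control value rests on 2 libraries. The log2 fold change was -3.01 (SE 0.82; edgeR, adjusted p = 0.0152). The call was lost without control 2 (adjusted p = 0.0968) or control 3 (adjusted p = 0.102), with limma-voom (log2 fold change -1.44, adjusted p = 0.445), and with the muscle and fat scores (log2 fold change -3.82, adjusted p = 0.266). The summed CPM of 9 macrophage markers was 165 in control 1, and 615 and 487 in controls 2 and 3; it was 52.9 to 466 in slow-growing PNs and 263 to 770 in fast-growing PNs, and its part in the result was not tested.

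*Rasal2*, which encodes a RAS GAP, at chr1:157135182-157412595 on the minus strand, was at 327, 165, and 157 CPM in controls. It was at 661, 347, 386, 335, and 638 CPM in slow-growing PNs and between 266 and 356 CPM, with a median of 311, in fast-growing PNs. Slow-growing PNs 1 and 5 were high, and control 1 lay among the fast-growing PNs. The difference between PNs and controls, a log2 fold change of 0.83 (SE 0.32), did not pass the test (edgeR, adjusted p = 0.0698). It passed without control 1 (log2 fold change 1.26, adjusted p = 0.0201), with DESeq2 (adjusted p = 0.0415), with limma-voom (adjusted p = 0.0348), and in a fit over all 3 groups (adjusted p = 0.0349). With the muscle and fat scores the log2 fold change was 1.51 (adjusted p = 0.103). An exon of *Rasal2* overlaps *2810025M15Rik* on the opposite strand, and since the counting's strand setting is not given in the sources used here, reads of the pair may be mixed.

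*Rasa1* and *Rasa3* did not pass the main test. *Rasa1*, at chr13:85214780-85289130 on the minus strand, encodes a GAP that docks to activated receptor tyrosine kinases; relative to its level, its group means lay closest together of the 8 genes, at 84.8 ± 5.16 CPM (SD, n = 3) in controls, 80.1 ± 8.43 CPM (n = 5) in slow-growing PNs, and 83.8 ± 5.13 CPM (n = 6) in fast-growing PNs. Its log2 fold change in PNs was -0.05 (SE 0.10; edgeR, adjusted p = 0.769). With the length and GC trend removed it was called lower, at -0.30 in PNs (adjusted p = 0.0281) and -0.32 in fast-growing PNs (adjusted p = 0.0295). One of its exons overlaps *Ccnh* on the opposite strand. *Rasa3*, at chr8:13566948-13677603 on the minus strand, encodes a membrane-bound GAP that also acts on RAP proteins. It was at 35.6, 57.8, and 61.4 CPM in controls, at 41.4, 73.7, 35.3, 21.8, and 54.3 CPM in slow-growing PNs, and between 51.4 and 83.9 CPM, with a median of 65.4, in fast-growing PNs. The slow-growing PNs spread over the whole range of the controls and beyond it, and the log2 fold change of PNs was 0.16 (SE 0.32; edgeR, adjusted p = 0.741).

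**Figure D1:**
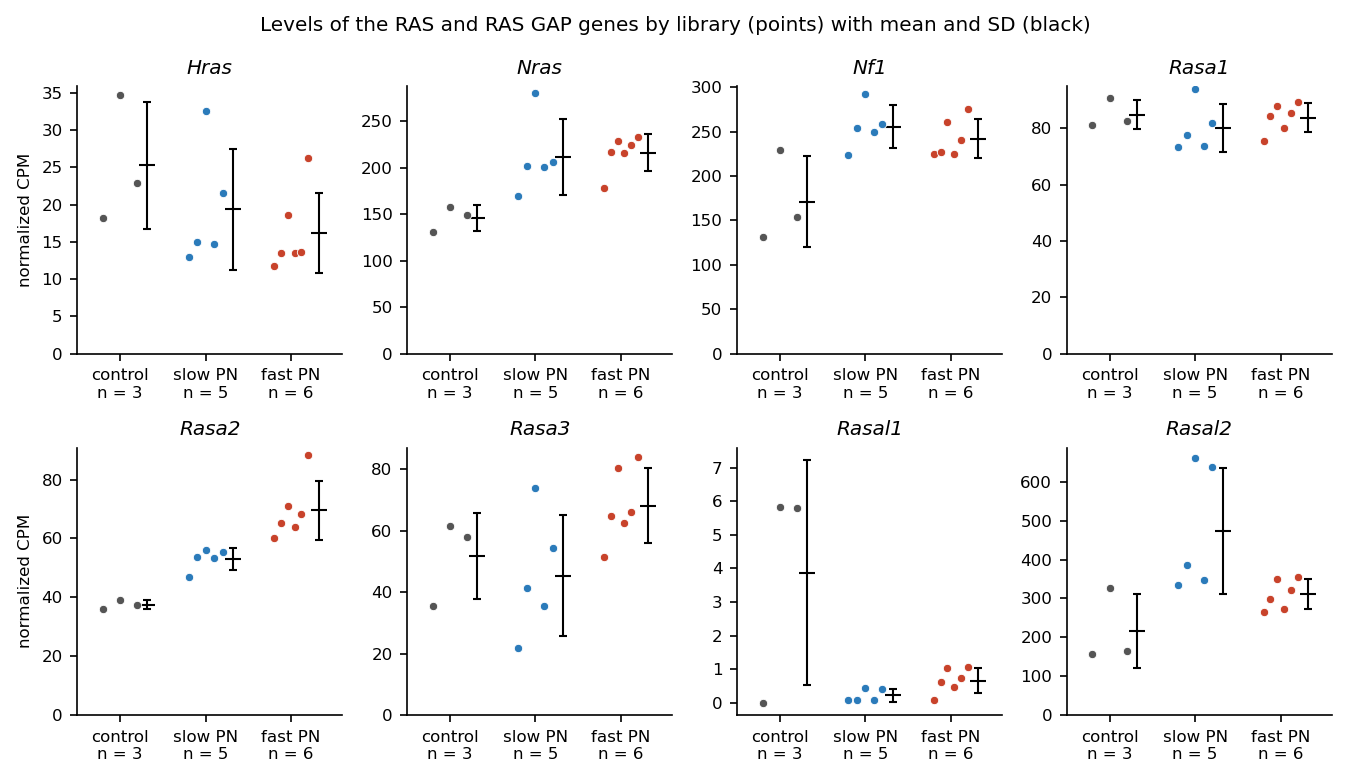
Normalized CPM of each gene (y axis, linear, a scale per panel) in 3 controls, 5 slow-growing PNs, and 6 fast-growing PNs (x axis); points are libraries, black marks are means and bars are SDs. *Nras* and *Rasa2* were higher in every PN than in every control, *Rasa2* rose from 37.4 CPM in controls to 69.5 CPM in fast-growing PNs, and *Rasal1* was above 5 CPM in 2 controls alone.

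The second question was whether the PNs differ from controls when slow-growing and fast-growing PNs are taken apart. These comparisons use the same 3 controls. In slow-growing PNs, 0 of the 7 genes tested were called by edgeR, 4 had an unadjusted p under 0.05, against 30.3% of all genes, and *Rasal1* did not pass the filter on low counts. Over all 15714 genes tested, 11.3% were called, 4.12% higher and 7.13% lower. *Rasa2*, *Nras*, and *Rasal2* were higher in all 5 slow-growing PNs than in every control, with log2 fold changes of 0.46 (SE 0.13), 0.50 (SE 0.19), and 1.10 (SE 0.37). Their adjusted p-values in edgeR were 0.0595, 0.122, and 0.0918. How many of all genes were likewise higher in every slow-growing PN than in every control was not counted. *Nf1* had a log2 fold change of 0.54 (SE 0.21; adjusted p = 0.127). The count called was 4 with DESeq2, 5 in the fit over all 3 groups, and 3 without control 1, where *Nf1*, *Rasal1*, and *Rasal2* passed. Over all genes, 1769 were called in the main test and 3529, 3280, and 2454 under these settings. The muscle and fat scores left 0 genes called over all genes. Under them the edgeR log2 fold changes were 0.15 for *Nf1*, 0.13 for *Nras*, 0.35 for *Rasa2*, and 1.15 for *Rasal2*. After the length and GC trend was removed they were 0.16, 0.25, 0.12, and 0.74. None of the 7 genes tested was called there, and 1315 genes were called in all.

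In fast-growing PNs, *Rasa2* and *Nras* rose and 6 of the 8 genes did not pass the test. Thus 2 of 8 genes were called, both higher, against 31.4% of 16037 genes called in all, 14.8% higher and 16.7% lower. *Rasa2* had a log2 fold change of 0.84 (SE 0.15; edgeR, adjusted p = 0.00250) and *Nras* of 0.52 (SE 0.12; edgeR, adjusted p = 0.0103), and both were called without each of the 9 libraries in turn. *Nf1* was at 0.46 (SE 0.17; adjusted p = 0.0718), *Hras* at -0.70 (SE 0.27; adjusted p = 0.0804), and *Rasal1* at -2.59 (SE 0.97; adjusted p = 0.0702) on the log2 scale in the same edgeR fit. Without control 1 the count was 5, with DESeq2 and in the fit over all 3 groups it was 4, with limma-voom 3, and with the muscle and fat scores 0. Over all genes, 5043 were called in the main test, 5247 without control 1, 5868 with DESeq2, 4801 in the fit over all 3 groups, 4790 with limma-voom, and 0 with the scores. With the scores the log2 fold changes were 0.94 for *Rasa2* and 0.60 for *Nras*, no smaller than in the main test, at adjusted p = 0.808 and 0.890 in edgeR. With the length and GC trend removed, *Rasa2* (adjusted p = 0.0207) and *Rasa1* were called and *Nras* was not (adjusted p = 0.0866).

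**Figure D2:**
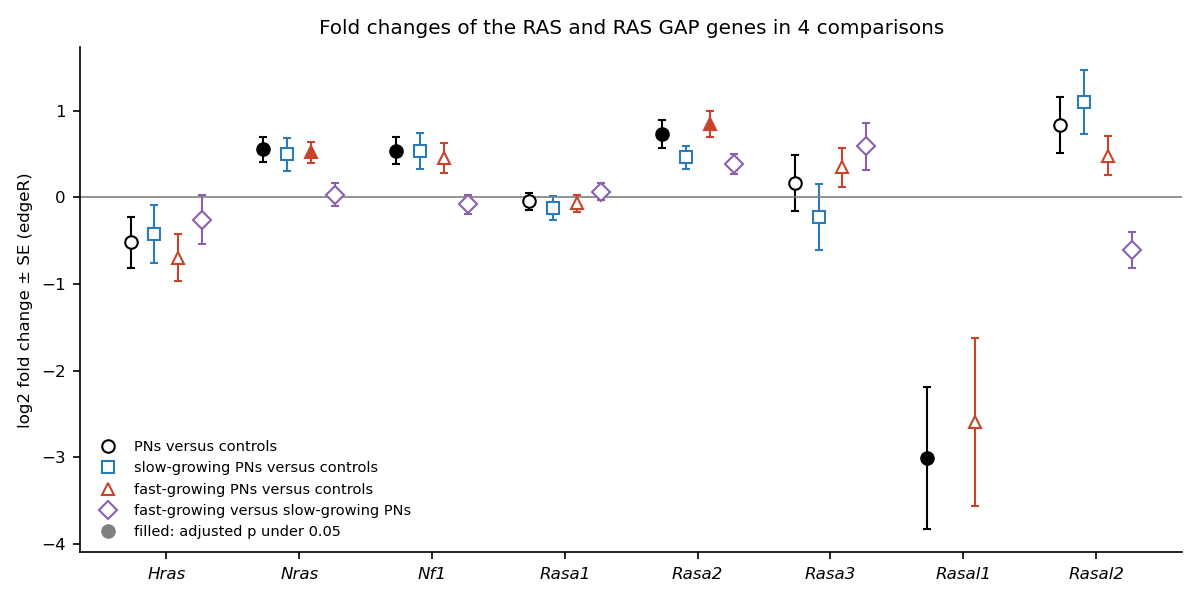
Log2 fold changes with SE (y axis) of the 8 genes (x axis) in 4 comparisons, from edgeR; filled symbols are called, open symbols are not. *Nras* and *Rasa2* are filled for PNs and for fast-growing PNs against controls, *Nf1* and *Rasal1* for PNs alone, and no gene is filled between fast-growing and slow-growing PNs; *Rasal1* was tested in 2 comparisons.

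The third question was whether the genes follow the growth of the PN. Between fast-growing and slow-growing PNs, 0 of the 7 genes tested were called by edgeR and 3 had an unadjusted p under 0.05, against 20.4% of all genes. By adjusted p, 1.27% of the 15465 genes tested were called, 0.802% higher and 0.466% lower in fast-growing PNs. *Rasa2* was higher in every fast-growing PN than in every slow-growing PN, at 69.5 ± 9.91 CPM (SD, n = 6) against 53.0 ± 3.63 CPM (SD, n = 5), a log2 fold change of 0.39 (SE 0.12; edgeR, adjusted p = 0.0895). *Rasal2* was at 311 ± 37.7 CPM against 473 ± 162 CPM, with 4 of the 6 fast-growing PNs below every slow-growing PN (log2 fold change -0.61, SE 0.21; edgeR, adjusted p = 0.128). Both passed with DESeq2 (adjusted p = 0.0396 and 0.0464), which called 1570 of the 15465 genes against 196 with edgeR, and under edgeR neither passed with any 1 library left out.

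*Rasa3* was at 68.1 ± 12.0 CPM in fast-growing and 45.3 ± 19.7 CPM in slow-growing PNs, a log2 fold change of 0.59 (SE 0.27; edgeR, adjusted p = 0.244). *Nf1* (-0.08, SE 0.11), *Nras* (0.03, SE 0.14), *Rasa1* (0.06, SE 0.10), and *Hras* (-0.26, SE 0.28) had log2 differences within their SE, with adjusted p between 0.623 and 0.911 in edgeR. *Rasal1* was not tested here: it held 58 counts over the 6 fast-growing PNs and 13 over the 5 slow-growing PNs. The summed CPM of 7 fibroblast markers, of which 1 was called higher in PNs, was 9640 to 18792 in fast-growing PNs, 2037 to 11304 in slow-growing PNs, and 2498 to 5147 in controls. Across the 11 PNs the mean log2(CPM + 1) of these markers had a Pearson's r of 0.76 with *Rasa2*, 0.94 with *Rasa3*, -0.40 with *Rasal2*, and -0.76 with *Hras*. Without slow-growing PN 4 the last 2 were -0.75 and -0.50. The macrophage markers had an r of 0.74 with *Rasa2*, 0.88 with *Rasa3*, -0.68 with *Rasal2*, and -0.66 with *Hras* over the same PNs. The sensory neuron markers had an r of -0.75 with *Rasa2*, -0.60 with *Rasa3*, and 0.65 with *Hras*, and without fast-growing PN 4, whose neuron marker sum was 35.6 CPM, of -0.37, -0.76, and 0.91. Other marker lists reached values of like size over the 11 PNs. *Hras* had an r of -0.70 with endothelial and 0.61 with skeletal muscle markers. *Rasal2* had an r of 0.64 with SC and 0.58 with fat markers, and *Rasa2* of -0.50 with fat markers. The part of these cell types in the differences was not tested.

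**Figure D3:**
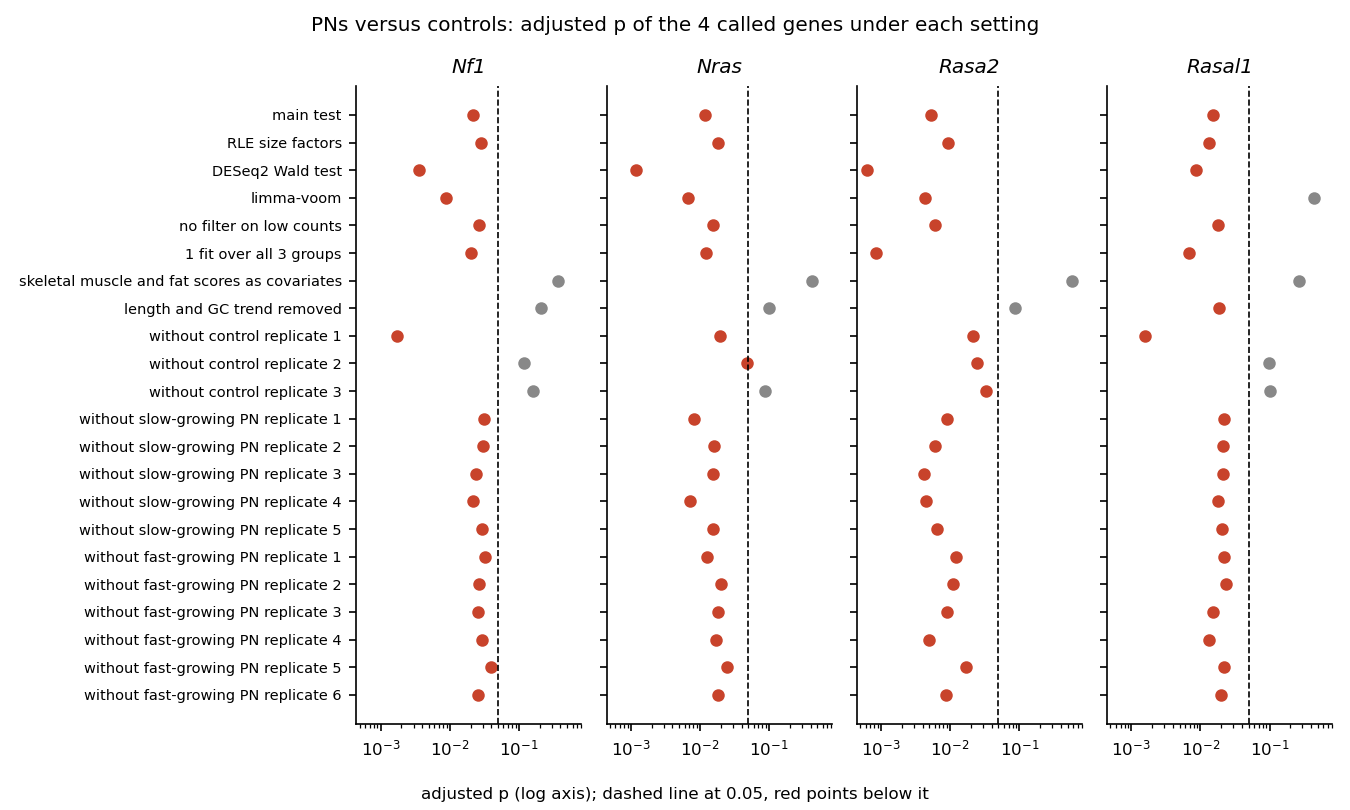
Adjusted p (x axis, log scale) of the 4 genes called in PNs against controls, under the main test, 7 other settings, and without each of the 14 libraries (y axis); red points lie under 0.05. *Rasa2* stays under 0.05 without any one library, *Nf1* and *Rasal1* lie above it without control 2 or 3 and *Nras* without control 3, and all 4 genes lie above it with the muscle and fat scores in the model.

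How the RAS and GAP transcripts stand to each other can be read from CPM divided by the length of the longest annotated transcript in kb, the scale of every value in this paragraph. *Nras* exceeded *Hras* in every library, at 32.6 ± 3.07 against 8.93 ± 3.01 in controls (SD, n = 3), 47.4 ± 9.20 against 6.84 ± 2.86 in slow-growing PNs (n = 5), and 48.4 ± 4.41 against 5.73 ± 1.91 in fast-growing PNs (n = 6). Of their sum, *Nras* made up 78.8 ± 4.83% in controls, 87.7 ± 2.71% in slow-growing, and 89.5 ± 2.86% in fast-growing PNs, and the lowest PN, at 84.4%, was above the highest control, at 83.8%. In controls the levels followed the order *Nras*, *Rasal2*, *Rasa1*, *Nf1*, *Rasa3*, *Hras*, *Rasa2*, *Rasal1*. From *Rasal2* (21.5 ± 9.58) through *Rasa1* (18.6 ± 1.13), *Nf1* (14.4 ± 4.32), and *Rasa3* (11.7 ± 3.17) to *Hras*, the range of each gene overlapped that of the next.

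In fast-growing PNs the order was *Nras*, *Rasal2* (31.0 ± 3.75), *Nf1* (20.3 ± 1.81), *Rasa1* (18.4 ± 1.12), *Rasa3* (15.5 ± 2.74), *Rasa2* (10.6 ± 1.51), *Hras*, *Rasal1*. From *Nf1* to *Hras*, the range of each gene again overlapped that of the next, and *Rasal2* stood above the range of *Nf1*. In slow-growing PNs *Rasal2* (47.1 ± 16.1) stood level with *Nras*, and *Nf1* (21.5 ± 2.06), *Rasa1* (17.6 ± 1.85), *Rasa3* (10.3 ± 4.48), *Rasa2* (8.06 ± 0.551), and *Hras* followed. *Rasal1* was the lowest GAP in every group, at 1.19 ± 1.03 in controls, 0.0692 ± 0.0582 in slow-growing, and 0.204 ± 0.113 in fast-growing PNs.

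Summed over the 6 GAPs, the level was 73.1 ± 9.19 CPM per kb in controls, 105 ± 16.7 in slow-growing, and 95.9 ± 6.65 in fast-growing PNs, with a lowest PN value of 88.3 and a highest control value of 83.4. The ratio of this sum to that of *Hras* and *Nras* was 1.76 ± 0.00470 in controls, 2.02 ± 0.623 in slow-growing, and 1.78 ± 0.149 in fast-growing PNs, and it ranged from 1.23 to 2.85 in slow-growing PNs. *Rasal2* made up 28.7 ± 8.94% of the GAP sum in controls, 44.1 ± 8.36% in slow-growing, and 32.3 ± 3.08% in fast-growing PNs. *Nf1* made up 19.4 ± 3.30%, 20.9 ± 3.82%, and 21.2 ± 1.35% in the same order, so most GAP transcript per length came from other genes in each group. *Rasa2* made up 7.88 ± 1.17% in controls, 7.81 ± 0.887% in slow-growing, and 11.01 ± 1.22% in fast-growing PNs. These sums and shares are descriptions and were not tested.

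**Figure D4:**
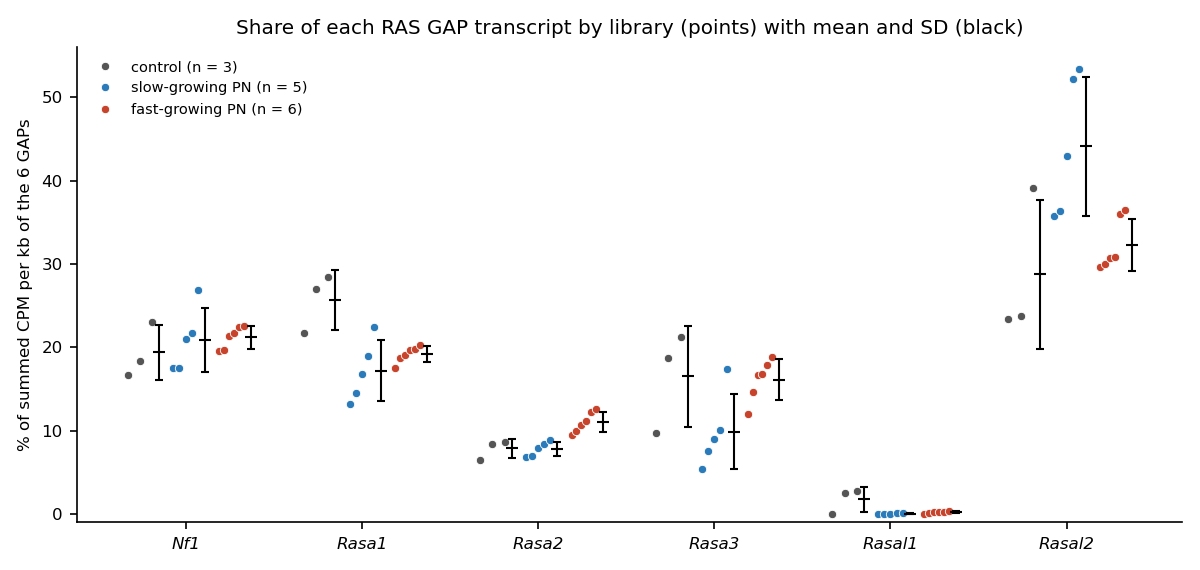
Share of each GAP gene in the summed CPM per kb of the 6 GAPs (y axis, %) by gene (x axis) in controls, slow-growing PNs, and fast-growing PNs; points are libraries, black marks are means and bars are SDs. *Rasal2* held the largest mean share in each group, 44.1% in slow-growing PNs, *Nf1* stayed near 20% in all 3 groups, and *Rasal1* was near 0. In controls 2 and 3 the share of *Rasa1* was above that of *Rasal2*.

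Across the 14 libraries, the members did not vary as a block. On the log2(CPM + 1) scale, *Nf1* had a Pearson's r of 0.79 with *Nras*, 0.75 with *Rasal2*, and -0.88 with *Rasal1*, while *Rasa3* and *Hras* had an r of -0.74. Over the 11 PNs alone, the first 3 values were 0.42, 0.23, and -0.37, and that of *Rasa3* and *Hras* was -0.78. The genes whose levels were most like those of *Nf1* were *Tanc2* (r = 0.968) and *Chd6* (r = 0.954), those most like *Nras* were *Zswim6* and *Golt1b* (r = 0.948 for each), and those most like *Rasa2* were *Arcn1* (r = 0.956) and *Lin7c* (r = 0.948). *Rasa3* was most like *Tcirg1* (r = 0.969) and *Rab32* (r = 0.967), *Rasal2* like *Gmfb* and *Ptpdc1* (r = 0.964 for each), and *Hras* like *Chmp4b* (r = 0.955) and *Cct3* (r = 0.942). *Rasa1* had the weakest partners, *Vps45* (r = 0.850) and *Taf9* (r = 0.849). The genes most like *Rasal1* were *Mir142b* (r = 0.958) and *Clec4n* (r = 0.957), both of which are expressed in myeloid cells, and *Clec4n* was at 9.28 CPM on average in controls, 0.244 in slow-growing, and 0.448 in fast-growing PNs. *Mir142b* was at 1.51, 0.106, and 0.310 CPM in the same order, and both genes lay near the floor in PNs, as *Rasal1* did. Over the 11 PNs alone the r of these 2 genes was 0.752 and 0.598, and that of the genes named for the other members lay between 0.741 and 0.976. All r values are descriptions over libraries that also differ in tissue composition.

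Around these 8 genes, 58 other genes of the RAS pathway were counted in 7 lists, and all 58 were tested. In PNs 13 rose and 3 fell, a share to be read against the 12.9% higher and 13.4% lower among all genes, and their median log2 fold change was 0.32 against 0.10. Without control 2 the count called was 7, and without control 3 it was 6, where the calls over all genes were 2476 and 2061 against 4283 with every library. With the muscle and fat scores it was 3, namely *Shoc2*, *Frs2*, and *Map2k2*. Slow-growing PNs had 4 higher and 1 lower against controls, fast-growing PNs 15 higher and 3 lower, and 1 gene was higher in fast-growing than in slow-growing PNs. Among all genes the shares called were 4.12% higher and 7.13% lower for slow-growing PNs, 14.8% higher and 16.7% lower for fast-growing PNs, and 0.802% higher between fast-growing and slow-growing PNs.

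Among 14 RAS effectors and MAPK kinases, 3 rose and 1 fell in PNs. *Shoc2*, a scaffold through which RAS activates RAF kinases, was at 234 ± 65.3 CPM in PNs (SD, n = 11) and 91.7 ± 15.5 CPM in controls (SD, n = 3; log2 fold change 1.35, SE 0.25; edgeR, adjusted p = 0.00130). *Ralgds*, an exchange factor for RAL proteins that binds active RAS, rose from 30.2 ± 1.78 to 49.98 ± 6.95 CPM (0.73, SE 0.14; edgeR, adjusted p = 0.00184). *Map2k2*, a MAPK kinase downstream of RAF, fell from 40.8 ± 1.09 to 19.1 ± 3.66 CPM (-1.10, SE 0.17; edgeR, adjusted p = 0.000317). For each of the 3, the ranges of PNs and controls did not overlap, and each was also called against controls in either growth group.

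Among 7 adaptors upstream of RAS, 3 rose and 0 fell in PNs. *Frs2*, an adaptor of FGF receptors, rose from 77.5 ± 8.70 to 131 ± 18.4 CPM (log2 fold change 0.76, SE 0.15; edgeR, adjusted p = 0.00180), and every PN was above every control. The docking protein gene *Gab1* (0.83, SE 0.28; adjusted p = 0.0403) and the adaptor gene *Shc1* (0.84, SE 0.26; adjusted p = 0.0300) also rose. *Shc1* was not called without any one of the 3 controls (adjusted p up to 0.122), and *Gab1* without any one of 10 libraries, among them controls 2 and 3 (adjusted p up to 0.209). *Gab2*, a docking protein related to *Gab1*, was the one pathway gene called between fast-growing and slow-growing PNs, at 113 ± 17.9 against 57.8 ± 10.3 CPM with no overlap (log2 fold change 0.96, SE 0.15; edgeR, adjusted p = 0.0317). It was lost without any one of 7 libraries, with adjusted p up to 0.120 for slow-growing PN 5, and with the muscle and fat scores (adjusted p = 0.293).

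Among the 4 neurofibromin partners, *Spred1* and *Spred3* rose in PNs. *Spred1*, which brings neurofibromin to the membrane, was at 159 ± 69.3 CPM in PNs and 64.9 ± 14.6 CPM in controls (log2 fold change 1.29, SE 0.41; edgeR, adjusted p = 0.0304). Its mean was 207 ± 49.9 CPM in fast-growing and 101 ± 35.9 CPM in slow-growing PNs, a difference that did not pass the test (edgeR, adjusted p = 0.0562). *Spred1* was not called without control 2 (adjusted p = 0.111), control 3 (adjusted p = 0.150), or fast-growing PN 1 or 5 (adjusted p = 0.0501 and 0.0525). *Spred3* was at 8.86 ± 2.65 CPM in PNs and 4.51 ± 1.07 CPM in controls (0.98, SE 0.30; adjusted p = 0.0287), and it was lost without any one control (adjusted p up to 0.111) or fast-growing PN 5 (adjusted p = 0.0525).

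Among the 7 genes of RAS processing and membrane delivery, *Golga7* and *Zdhhc9*, whose products together palmitoylate RAS, rose in PNs. *Golga7* went from 77.6 ± 10.1 to 128 ± 10.5 CPM (log2 fold change 0.72, SE 0.12; edgeR, adjusted p = 0.000471) with every PN above every control. *Zdhhc9* went from 39.7 ± 11.9 to 79.9 ± 20.9 CPM (1.01, SE 0.25; adjusted p = 0.00956), and its lowest PN, at 54.2 CPM, was just above its highest control, at 53.3 CPM. It was lost without control 2 (adjusted p = 0.0677) or control 3 (adjusted p = 0.0684).

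Of the further genes with a GAP-related domain, *Iqgap2*, which encodes a scaffold protein, rose; it was at 183 ± 75.2 CPM in PNs and 59.8 ± 4.18 CPM in controls (log2 fold change 1.62, SE 0.40; edgeR, adjusted p = 0.00955), although the PN range, from 56.0 to 299 CPM, included that of the controls. Without control 3 it was not called (adjusted p = 0.0555). Of 11 RAS relatives, *Rap2a* rose (0.63, SE 0.16; adjusted p = 0.00890) and *Rras2* fell (-0.82, SE 0.21; adjusted p = 0.00957). *Rap2a* was lost without control 2 or 3 (adjusted p up to 0.0803), and *Rras2* without control 2 (adjusted p = 0.0803). Of 8 exchange factors, *Rasgrp2* fell from 11.6 ± 0.696 to 6.35 ± 2.12 CPM (-0.87, SE 0.28; adjusted p = 0.0330), and the call was lost without any one control (adjusted p up to 0.106) or fast-growing PN 5 (adjusted p = 0.0506).

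**Figure D5:**
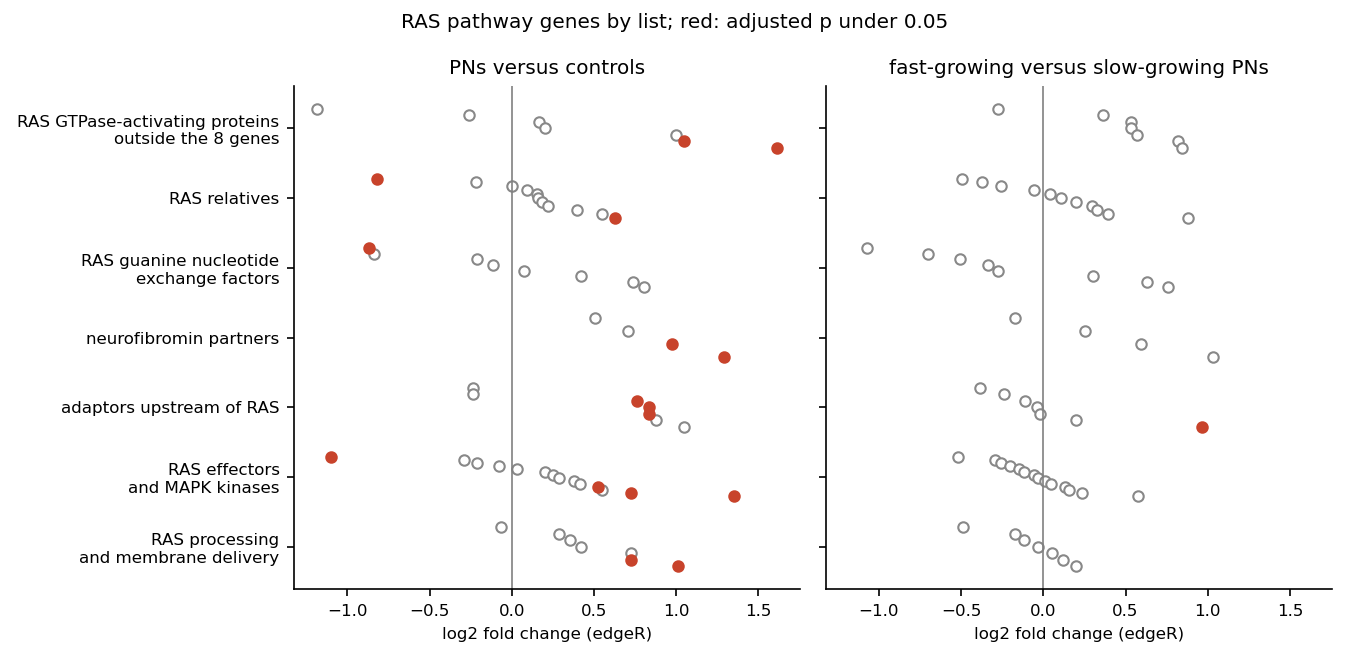
Log2 fold changes (x axis) of 58 RAS pathway genes in 7 lists (y axis), for PNs against controls and for fast-growing against slow-growing PNs; each point is a gene, and red points are called. In PNs 13 genes lie to the right and 3 to the left in red, and 1 gene, *Gab2*, is red between fast-growing and slow-growing PNs.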

How the data were processed

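Bulk RNA-seq was analysed for 3 control DRGs with nerves and 11 PNs. According to the submitters' processing notes and the methods of the study, RNA was amplified with the Ovation RNA-Seq System, and reads were demultiplexed with CASAVA 1.4, checked with FastQC 0.11.0, aligned to mm10 with TopHat2 2.0.9, and counted per gene with featureCounts 1.5.2. The deposited values are whole-number counts for 24062 genes, made by the authors without normalization. A deposited table of log2 values, normalized by the authors, was not used here. The groups came from the labels, which give each library its own identifier but do not say that the libraries are from separate mice, so p-values measure the spread between these libraries. The genes described, the pathway lists, and the marker lists were chosen with earlier results of these data known.

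Counts were tested in R 4.3.3 with edgeR 4.0.16: filterByExpr, TMM factors, and the quasi-likelihood test, with only the libraries of a comparison in each of the 4 fits and Benjamini-Hochberg adjustment over all genes tested (threshold 0.05). No covariate was used, since sex and batch per library are not given in the sources used here; control and PN tissue and any difference in their preparation cannot be told apart. The alternatives were RLE size factors, DESeq2 1.42.0, limma-voom 3.58.1, no filter on low counts, 1 fit over all 3 groups, and skeletal muscle and fat scores (the mean log2(CPM + 1) of each list) as covariates. Removing each library's trend on transcript length and GC content, and all alternatives for the pathway genes, were added after seeing the data. Each library was also left out in turn. The scripts were tested on simulated data. From the pathway lists, at most 4 genes each were given with values, by lowest adjusted p in PNs against controls, some pathway genes are not reported here, and likeness was read from the 2 genes with the highest r. Positions and transcript lengths come from GENCODE M21, in which 22750 genes matched by symbol, 935 by an older symbol, and 377 did not match. Reads copied by PCR are no independent molecules, and a floor of 3 counts covers counting error only.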

Additional observations from a re-analysis of the deposited data

Results flagged for a closer look

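In 2 of 50 groups of values tested (the 8 RAS and GAP genes and the 17 pathway genes called in PNs or between fast-growing and slow-growing PNs, each in slow-growing and in fast-growing PNs), 1 library stood far from the rest of its group. Chance alone puts about 1 in 20 groups past this limit. *Nras* was at 178 CPM in fast-growing PN 1, and the nearest of the other fast-growing PNs was at 216 CPM. *Rap2a* was at 120 CPM in fast-growing PN 6, and the nearest of the others was at 147 CPM. Both values lie nearer to the controls than the rest of their group.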

How the results depend on the processing

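For the 8 genes, 472 of 527 alternative results kept their direction and their side of the threshold, 27 passed where the main test did not, 16 no longer passed, and 12 changed sign. None of the 12 came from a called result. In PNs against controls, the number of the 8 genes called was 4 in the main test, 0 with the muscle and fat scores, 2 with the length and GC trend removed (*Rasal1*, and *Rasa1*, which the main test did not call), and 1 to 5 without 1 library; over all genes it was 4283, 519, 3668, and 2061 to 4779. In slow-growing PNs it was 0 in the main test, 4 with DESeq2, 5 in the fit over all 3 groups, and 0 to 3 without 1 library. In fast-growing PNs it was 2 in the main test, 4 with DESeq2 and in the fit over all 3 groups, 0 with the muscle and fat scores, and 2 to 5 without 1 library. Between fast-growing and slow-growing PNs it was 0, and 2 with DESeq2. The cause of these shifts was not tested.

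Among the log2 fold changes that changed sign, in PNs against controls, *Rasa3* was at -0.612 with the muscle and fat scores. Without 1 library, *Rasa1* ranged from -0.100 to 0.00554 (above 0 without control 2) and *Rasa3* from -0.0406 to 0.308 (below 0 without control 1). In fast-growing PNs against controls, *Rasa1* was at 0.0794 and *Hras* at 0.0284 with those scores, and *Rasa1* ranged from -0.107 to 0.0110 without 1 library (above 0 without fast-growing PN 6). Between fast-growing and slow-growing PNs, *Nf1* was at 0.0501 with the trend removed, and *Rasa1* at -0.00575 and *Nras* at -0.106 with the scores. Without 1 library, *Hras* ranged from -0.417 to 0.0114 (above 0 without slow-growing PN 4) and *Nras* from -0.0148 to 0.150 (below 0 without slow-growing PN 1 or fast-growing PN 4). Of 354 alternative results of the 17 pathway genes called in PNs or between fast-growing and slow-growing PNs, not all of which are named, 295 kept their call, 58 lost it, and 1 changed sign (*Spred3*, -0.0525 with the scores). The pathway count in slow-growing PNs was 5, and 1 to 13 without 1 library. It was 15 with DESeq2, 14 in the fit over all 3 groups, and 0 with the scores. In fast-growing PNs it was 18, 11 to 21 without 1 library, and 0 with the scores. Over all genes the ranges without 1 library were 599 to 2454 and 3342 to 5247, and 0 genes were called with the scores. The pathway count between fast-growing and slow-growing PNs was 1, and 0 to 6 without 1 library.

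Of the 4 genes called in PNs, 3 lost the call without 1 of the 3 controls, and *Rasal1* held at most 14 counts in any PN and 0 in control 1. No paired analysis was possible because the labels give no numbers shared between groups.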
